A study of Mus musculus with 30 samples.

Results

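The genes of MHC class I antigen presentation and of the immunoproteasome were followed through the mouse colon in 6 genotypes. The set was given by name and not by its measured values: the light chain B2m, the classical heavy chains H2-K1 and H2-D1, the peptide transporter genes Tap1 and Tap2, the loading factor Tapbp, the immunoproteasome subunits Psmb8, Psmb9 and Psmb10, and the class I transactivator Nlrc5. These are 10 of the 55487 genes in the table, and all 10 passed the filter on low counts that left 15458 genes for testing. Each of the 30 libraries came from total RNA of the colon of a single mouse, read by 3′ tags, that is, near the end of each transcript. The groups of 5 mice were WT, XBP1IEC-KO (the Xbp1 knockout below), Casp8IEC-KO (the Casp8 knockout), XBP1IEC-KO;Casp8IEC-KO (the double knockout), and 2 triple knockouts that add TNFR1IEC-KO or MLKLKO to the double knockout. IEC stands for intestinal epithelial cells in this field, so Xbp1, Casp8 and Tnfr1 are labelled as deleted in the epithelium only, while the design text writes the MLKL genotype as Mlkl-/-, with no cell type. The sources used here do not give age, sex, strain or the Cre driver. XBP1 is a transcription factor of the endoplasmic reticulum stress response, caspase-8 is the protease that begins death-receptor apoptosis and holds necroptosis in check, TNFR1 binds TNF, and MLKL executes necroptosis. The design asks what each epithelial deletion changes alone and together, and what is different when TNFR1 or MLKL is missing as well.

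MHC class I molecules show peptides from inside a cell to CD8 T cells. The proteasome cuts proteins into peptides, the TAP transporter carries them into the endoplasmic reticulum, tapasin (Tapbp) holds empty class I molecules beside the transporter, and a heavy chain with peptide and beta-2 microglobulin (B2m) moves to the surface. Interferons raise the whole set: under interferon the subunits of Psmb8, Psmb9 and Psmb10 take the places of the standard catalytic subunits of Psmb5, Psmb6 and Psmb7, and NLRC5 binds at class I promoters and turns them on. Gut epithelial cells express class I and raise it in inflammation, as do the immune cells between them.

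In the genome 7 of the 10 genes lie on chromosome 17 (GRCm38, GENCODE coordinates), in the major histocompatibility complex: Tapbp at chr17:33915899-33929292, H2-K1 at chr17:33996017-34000347, Psmb9 at chr17:34181987-34187764, Tap1 at chr17:34187553-34197225, Psmb8 at chr17:34197721-34201454, Tap2 at chr17:34203527-34216321 and H2-D1 at chr17:35262730-35267499. B2m lies at chr2:122147686-122153083, Nlrc5 at chr8:94434356-94527272 and Psmb10 at chr8:105935735-105938444. H2-K1, Psmb9 and Psmb10 are on the minus strand and the other 7 on the plus strand. Exons of Tap1 and Psmb9 overlap on opposite strands, and exons of Tap2, Psmb8, Tapbp and Nlrc5 overlap other annotated genes on the opposite strand, so without a stated strand setting their reads cannot be parted with certainty. Tapbp also overlaps Zbtb22 on the same strand, which no strand setting would part, and its values were not whole in 19 of the 30 libraries, with 0.021% of its reads in fractions. H2-K1 and H2-D1 are related genes with whole values in all libraries, and no source used here says how reads that fit both were counted.

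Promoter windows of 300 bases, from 250 before to 50 after the RefSeq start (GRCm38.p6), were at hand for 8 of the 10 genes, with no entry used for Tap2 and Nlrc5. The first 3 are shown because they hold GGGA, any base, T, any 2 bases and CC, the core letters of an NF-kappaB site, on either strand. B2m (chr2:122147437-122147736, plus strand) also holds GAAA and GAAA 2 bases apart, the core letters of the interferon-stimulated response element. H2-K1 is shown from chr17:34000298-34000597 (minus strand) and H2-D1 from chr17:35262844-35263143 (plus strand). Capitals mark the matches, and in H2-K1 and H2-D1 overlapping matches on both strands make 1 block.
B2m: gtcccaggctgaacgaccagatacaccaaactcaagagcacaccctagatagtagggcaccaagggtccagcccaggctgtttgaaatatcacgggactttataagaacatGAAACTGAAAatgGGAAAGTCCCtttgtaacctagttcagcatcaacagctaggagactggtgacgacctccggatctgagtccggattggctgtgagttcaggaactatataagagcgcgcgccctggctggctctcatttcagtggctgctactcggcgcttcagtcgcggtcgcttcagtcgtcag
H2-K1: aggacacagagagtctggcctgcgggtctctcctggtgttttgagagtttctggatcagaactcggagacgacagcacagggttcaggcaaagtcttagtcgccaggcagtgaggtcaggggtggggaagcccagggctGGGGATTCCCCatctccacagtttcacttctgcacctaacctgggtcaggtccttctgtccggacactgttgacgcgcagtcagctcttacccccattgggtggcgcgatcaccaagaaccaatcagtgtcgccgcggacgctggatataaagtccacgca
H2-D1: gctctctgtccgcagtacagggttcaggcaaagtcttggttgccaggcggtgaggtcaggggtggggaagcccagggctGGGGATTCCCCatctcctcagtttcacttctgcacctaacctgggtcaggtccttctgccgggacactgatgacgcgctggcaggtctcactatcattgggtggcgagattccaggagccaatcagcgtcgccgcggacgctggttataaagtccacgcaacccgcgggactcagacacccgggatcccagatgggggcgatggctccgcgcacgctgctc

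With 1 window set 60 bases off the other, without gaps, H2-K1 and H2-D1 were identical at 176 of 240 overlapping bases (73.3%). With both strands searched, the NF-kappaB letters were in 3 of the 8 windows and in 4.16% of the 32851 windows of all genes, the response element letters in 1 of 8 and 3.44%, and TTC and GAA 3 bases apart, the core of the interferon-gamma activated site, in 1 of 8 (Psmb8) and 8.3%. A match describes these letters and is no evidence of a bound site. Only these exact letters were searched, so a window without a match can still hold a site with other letters. The window of Tap1 (chr17:34187306-34187605, plus strand) is shown because Psmb9 starts within it on the other strand. Capitals mark the stretch from the Psmb9 start at 34187330 to the Tap1 start at 34187556, which are 226 bases apart, so that the windows of the 2 genes share 275 bases.
Tap1: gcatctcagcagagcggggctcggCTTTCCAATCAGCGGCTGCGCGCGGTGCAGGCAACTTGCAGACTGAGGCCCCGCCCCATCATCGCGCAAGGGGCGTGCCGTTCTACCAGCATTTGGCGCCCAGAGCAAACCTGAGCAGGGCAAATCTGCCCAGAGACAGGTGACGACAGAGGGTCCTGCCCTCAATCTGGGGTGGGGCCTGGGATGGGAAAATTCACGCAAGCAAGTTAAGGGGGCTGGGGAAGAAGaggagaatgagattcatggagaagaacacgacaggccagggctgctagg

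Levels are given as CPM, the reads of a gene set against the size of its library (counts per unit of library size, scaled by TMM), and with library totals of 3516792.6 to 5823059.7 reads a single read was worth about 0.232 CPM. No source used here names the deleted part of each gene, tags outside that part check no deletion, and other cells of the colon keep Xbp1, Casp8 and Tnfr1. Tags of Casp8 stood at 51.5 to 58.7 CPM in WT and 24.7 to 34.8 in the Casp8 knockout. They stood at 35.6, 22, 32.5, 46.3 and 43.3 in the double knockout, whose replicates 1, 4 and 5 lay between those groups. Xbp1 stood at 52.8 to 100 CPM in WT, 51.1 to 65.1 in the Xbp1 knockout and 70.4 to 140 in the double knockout. Its tags were higher in the double knockout than in the Xbp1 knockout (log2 fold change 0.91 ± 0.203, adjusted p = 0.00558 in edgeR's test), though both labels name its deletion. Xbp1 is also a plasma cell gene, and plasma cell genes were high in the double knockout, but their part in its level was not tested. The double knockout is therefore named by its label throughout. The library labelled Xbp1 knockout replicate 2 held 21.1 CPM of Casp8, below every Casp8 knockout library. The library labelled MLKL triple knockout replicate 5 held 10.7 CPM of Mlkl against 1.30 to 4.38 in the other 4. Mlkl stood at 5.72 to 9.88 CPM in WT and 11.8 to 29.2 in the double knockout. It stood at 34.1 in Xbp1 knockout replicate 5 and 30.2 in TNFR1 triple knockout replicate 1. The library labelled TNFR1 triple knockout replicate 1 held 75.4 CPM of Tnfrsf1a, the gene of TNFR1, within the WT range of 65.0 to 78.9, against 52.4 to 61.5 in the other 4. It was also above those 4 for Xbp1 (109 CPM against 52.2 to 62.9) and Casp8 (33.6 against 16.5 to 23.9). Double knockout replicate 1 had the lowest share of mitochondrial reads, 10.29%, where the next lowest libraries had 13.25% and 14.56% and the highest 22.91%. Xist and Y-linked genes marked 1 WT, 3 Xbp1 knockout, 3 Casp8 knockout, 1 double knockout, 4 TNFR1 triple knockout and 5 MLKL triple knockout mice as female. The 14 epithelial markers summed to 9469 to 13653 CPM over all libraries, but moved both ways in the double knockout against WT: 6 rose, such as Krt20 (log2 fold change 1.24 ± 0.163, adjusted p = 6.16e-06), and 2 fell, Muc2 (−1.49 ± 0.194, adjusted p = 5.56e-06) and Car1 (−1.04 ± 0.292, adjusted p = 0.0107). The smooth muscle list of 8 genes summed to 7886 to 10773 CPM in WT and 3489 to 5580 in the double knockout. In bulk tissue, fewer cells of a type and less RNA per cell cannot be told apart.

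All 10 genes were higher in the double knockout than in WT. The rise was 15.3-fold for Nlrc5, 6.67-fold for Tap1, 5.72-fold for Psmb8, 5.31-fold for Psmb9 and 4.31-fold for Tap2. It was 3.33-fold for B2m, 2.89-fold for H2-D1, 2.36-fold for Psmb10, 2.12-fold for H2-K1 and 1.56-fold for Tapbp. All 10 passed edgeR's quasi-likelihood test at an adjusted p under 0.05, where 11.1% of all genes tested were called higher. Their median log2 fold change was 1.92, beside 0.01 over all genes tested. For 6 of the 10 (B2m, H2-D1, Tap1, Psmb8, Psmb9 and Nlrc5) every double knockout library lay above every WT library, which held for 6.55% of all genes. Without the 3 libraries in doubt (Xbp1 knockout replicate 2, MLKL triple knockout replicate 5 and double knockout replicate 1), all 10 still passed, beside 10.3% of all genes. Without TNFR1 triple knockout replicate 1 as well, a choice made after its values were seen, all 10 passed beside 10.8%.

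**Figure D1:**
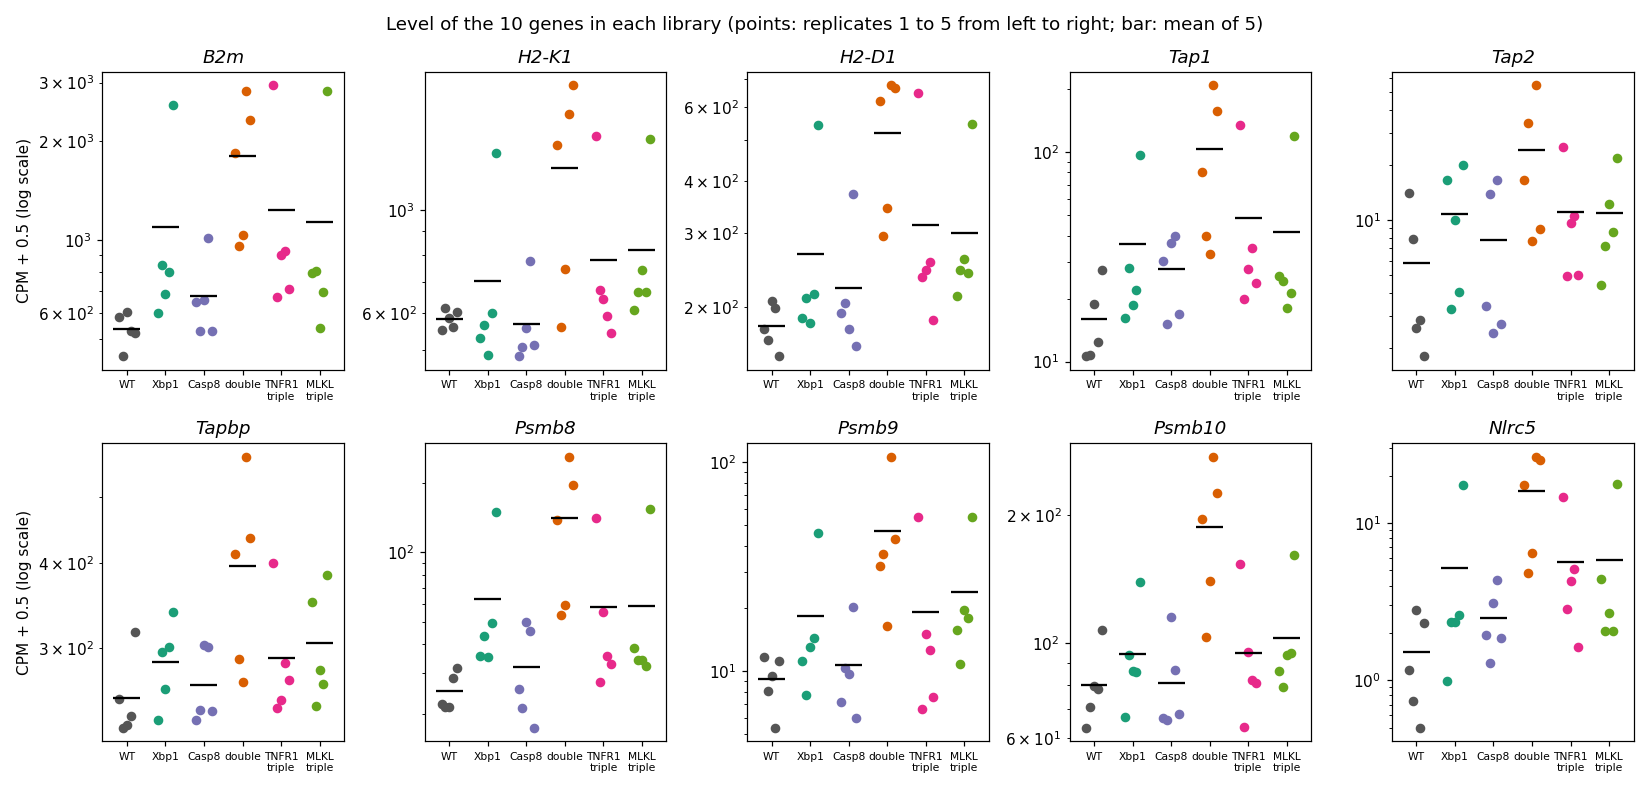
Level of each of the 10 genes in the 30 libraries, as CPM with 0.5 added on a log axis, by genotype (double and triple stand for the double and triple knockouts). Each point is 1 mouse, with replicates 1 to 5 from left to right, and the bar is the mean of 5. In the double knockout, replicates 1, 4 and 5 lie above replicates 2 and 3 for most genes, and 1 library each of the Xbp1 knockout, the TNFR1 triple knockout and the MLKL triple knockout stands above the other 4 of its group.

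All 3 chain genes of the class I molecule were called higher in the double knockout. B2m, the light chain that every class I molecule needs, stood at 583, 444, 605, 531 and 524 CPM in WT replicates 1 to 5 and at 1837, 962, 1032, 2818 and 2309 CPM in the double knockout. All double knockout libraries were above all WT libraries, with replicates 2 and 3 the lowest of them. The log2 fold change of B2m was 1.74 ± 0.437 (SE, adjusted p = 0.00472, higher in 5 of 5 mice). H2-D1, a heavy chain that presents peptide, stood at 177, 166, 206, 198 and 152 CPM in WT and at 620, 294, 343, 675 and 664 CPM in the double knockout, again with no overlap and with the same 2 mice lowest. The log2 fold change of H2-D1 was 1.53 ± 0.332 (adjusted p = 0.00134). H2-K1, the other classical heavy chain, stood at 551 to 613 CPM in WT and at 1383, 559, 747, 1615 and 1861 CPM in the double knockout. Replicate 2 lay within the WT range and replicates 1, 3, 4 and 5 above it, and the log2 fold change was 1.09 ± 0.301 (adjusted p = 0.00969).

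Of the genes for peptide transport and loading, Tap1 and Tap2 had the wider changes and Tapbp the smallest of the 10. Tap1, which encodes a subunit of the transporter, stood at 10.1, 10.2, 18.4, 11.9 and 26.8 CPM in WT and at 79.5, 39.1, 32.1, 208 and 157 CPM in the double knockout. The groups did not overlap, and the log2 fold change was 2.74 ± 0.626 (adjusted p = 0.00215). Tap2, the partner subunit, stood at 13.6, 7.35, 2.07, 2.33 and 1.30 CPM in WT and at 16, 33.2, 7.17, 53.9 and 8.43 CPM in the double knockout. Here the groups overlapped, WT replicates 1 and 2 were above the other 3 WT libraries, and the lowest double knockout mice were replicates 3 and 5. The log2 fold change of Tap2 was 2.11 ± 0.660 (adjusted p = 0.0212), and the call was lost without double knockout replicate 4 (adjusted p = 0.109) or without WT replicate 3, 4 or 5 (0.0558, 0.0564 and 0.0542). Tapbp stood at 229 to 316 CPM in WT and at 412, 289, 267, 572 and 435 CPM in the double knockout. WT replicate 5 was above double knockout replicates 2 and 3, and the log2 fold change was 0.64 ± 0.166 (adjusted p = 0.00613).

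The 3 immunoproteasome subunits rose together. Psmb8, the subunit that replaces that of Psmb5, stood at 21.6, 20.9, 20.9, 28.2 and 31.2 CPM in WT and at 137, 53.2, 58.6, 259 and 195 CPM in the double knockout, with no overlap. Its log2 fold change was 2.52 ± 0.521 (adjusted p = 8.71e-04). Psmb9, which replaces the subunit of Psmb6, stood at 11.2, 7.59, 8.97, 4.89 and 10.7 CPM in WT and at 31.4, 36.1, 15.9, 106 and 42.6 CPM in the double knockout. No library overlapped, replicate 4 was highest and replicate 3 lowest, and the log2 fold change was 2.41 ± 0.566 (adjusted p = 0.00270). Psmb10, which replaces the subunit of Psmb7, stood at 63.0, 70.6, 79.1, 77.8 and 107 CPM in WT and at 196, 103, 140, 274 and 225 CPM in the double knockout. Only double knockout replicate 2 fell below the highest WT library, and the log2 fold change of 1.24 ± 0.244 had the smallest adjusted p of the 10 genes (5.28e-04).

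Nlrc5, the transactivator, was close to the limit of detection in WT, at 0.660, 0.237, 2.30, 0 and 1.82 CPM, and stood at 17, 4.35, 5.98, 26 and 24.6 CPM in the double knockout. Every double knockout library was above every WT library, and replicates 2 and 3 were again the lowest. The log2 fold change of 3.93 ± 0.859 (adjusted p = 0.00141) rests on few reads in WT, since the gene had a median of 9.5 reads over the 30 libraries.

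Neither single deletion gave a call. With Xbp1 deleted, 0 of 10 genes passed edgeR's test against WT and 3 (B2m, Psmb8 and Nlrc5) had an unadjusted p under 0.05, beside 0.0582% of all genes called higher. With Casp8 deleted, 0 passed and 0 had an unadjusted p under 0.05, beside 0.634% called higher. DESeq2 also gave 0 in both comparisons. Over the 10 genes the median log2 fold change was 0.97 for the Xbp1 knockout and 0.32 for the Casp8 knockout, each beside 0.00 over all genes. In the Xbp1 knockout, B2m stood at 601, 838, 687, 801 and 2560 CPM and Psmb8 at 35.3, 42.9, 34.8, 49.2 and 149 CPM. Psmb8 was above every WT library in all 5 mice, the only one of the 10 genes to be so, which held for 2.05% of all genes, and its log2 fold change was 1.34 ± 0.518 (adjusted p = 0.245). Nlrc5 in the Xbp1 knockout stood at 0.487, 1.85, 1.86, 2.12 and 17.1 CPM, so that a single mouse, replicate 5, held most of the difference from WT.

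Against the Casp8 knockout, 9 of the 10 genes were called higher in the double knockout (9.68% of all genes), all but Tap2 (log2 fold change 1.68 ± 0.646, adjusted p = 0.0662). The largest values were those of Nlrc5 (2.92 ± 0.782, adjusted p = 0.00932), Psmb9 (2.16 ± 0.560, adjusted p = 0.00751) and Psmb8 (2.14 ± 0.512, adjusted p = 0.00410). Psmb8 and Nlrc5 did not overlap between the groups, as for 4.35% of all genes. The count was 6 without double knockout replicate 4, where B2m, Tap1 and Tapbp no longer passed (adjusted p = 0.0711, 0.0920 and 0.0861). B2m and Tap1 were also lost without Casp8 knockout replicate 2 (0.0529 and 0.0614) or 5 (0.0570 and 0.0631), Tap1 without double knockout replicate 5 (0.0572), and Tapbp in a fit of the 2 groups alone (0.0572). Tap2 passed without Casp8 knockout replicate 4 (0.0271) or without double knockout replicate 3 (0.0354) or 5 (0.0456).

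Against the Xbp1 knockout, 1 of the 10 genes was called higher in the double knockout, beside 4.77% of all genes. This was Psmb10, with 66.8, 93.6, 85.8, 85.3 and 139 CPM in the Xbp1 knockout, a log2 fold change of 1.0 ± 0.242 and an adjusted p of 0.00954. The other 9 had log2 fold changes of 0.46 to 1.72. Xbp1 knockout replicate 5 was the highest of its group for all 10 genes, and without it 8 of the 10 passed (all but Tap2 and Tapbp), beside 4.33% of all genes. That library was singled out by the same values. Leaving it out widens the difference by itself, so this count is no separate support. Without double knockout replicate 2 or 3 the count was 4 in each case. Whether the effect of 1 deletion depended on the other was tested as an interaction: 0 of 10 genes passed (1, Psmb10, at an unadjusted p under 0.05; DESeq2 0), beside 1.38% of all genes in either direction. The interaction of Psmb10 was 0.98 ± 0.345 on the log2 scale (adjusted p = 0.127), and the median of the 10 was 0.74.

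In both triple knockouts the 10 genes had lower means than in the double knockout, and 1 of them passed the test. Psmb10 fell 1.98-fold in the TNFR1 triple knockout, to 153, 63.3, 95.2, 81.4 and 80.1 CPM, and 1.83-fold in the MLKL triple knockout, to 85.7, 78.7, 93.3, 94.3 and 161 CPM. The groups overlapped only through the libraries labelled TNFR1 triple knockout replicate 1 and MLKL triple knockout replicate 5; the other 4 mice of each were below every double knockout library. The log2 fold change was −0.99 ± 0.242 (adjusted p = 0.0277) with TNFR1 missing and −0.87 ± 0.242 (adjusted p = 0.0235) with MLKL missing. Among all genes 1.33% (TNFR1) and 4.21% (MLKL) were called lower. Each call was lost in a fit of the 2 groups alone (adjusted p = 0.153 and 0.0684). For TNFR1 it was also lost without any 1 of TNFR1 triple knockout replicates 2 to 5 (0.0546 to 0.0956) or double knockout replicates 1, 4 or 5 (0.0728 to 0.104), and without the 3 libraries in doubt (0.0578). For MLKL it was lost without MLKL triple knockout replicates 1 to 4 (0.0545 to 0.0656) or double knockout replicates 4 or 5 (0.10 and 0.0631).

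The other 9 genes had log2 fold changes of −0.45 to −1.59 with TNFR1 missing and −0.38 to −1.57 with MLKL missing. Their median over all 10 was −1.05 and −0.93, beside 0.00 and 0.01 over all genes. Nlrc5 had the largest, at −1.59 ± 0.682 (adjusted p = 0.202) and −1.57 ± 0.684 (adjusted p = 0.159). The library labelled TNFR1 triple knockout replicate 1 was the highest of its group for all 10 genes, and without it 7 of the 10 were called lower than in the double knockout (H2-K1, H2-D1, Tap1, Tapbp, Psmb8, Psmb9 and Psmb10), beside 3.36% of all genes. The library labelled MLKL triple knockout replicate 5 was likewise the highest for all 10, and without it 6 were called lower (B2m, H2-D1, Tap1, Psmb8, Psmb10 and Nlrc5), beside 4.47% of all genes. Both libraries were singled out here as the highest for these same genes. Leaving them out lowers their group means, so these counts and those that follow are no separate support. Without the 3 libraries in doubt together, 4 were called lower in the MLKL triple knockout (Tap1, Psmb8, Psmb10 and Nlrc5), beside 3.80%. With TNFR1 triple knockout replicate 1 left out too, 7 were called lower with TNFR1 missing (H2-K1, H2-D1, Tap1, Psmb8, Psmb9, Psmb10 and Nlrc5), beside 2.08% of all genes, and 7 with MLKL missing (B2m in place of H2-K1), beside 4.45%. By Xist and Y-linked genes the MLKL triple knockout mice were all female and 4 of 5 double knockout mice male; with sex as a term Psmb10 had −0.99 ± 0.287 (adjusted p = 0.0361).

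**Figure D2:**
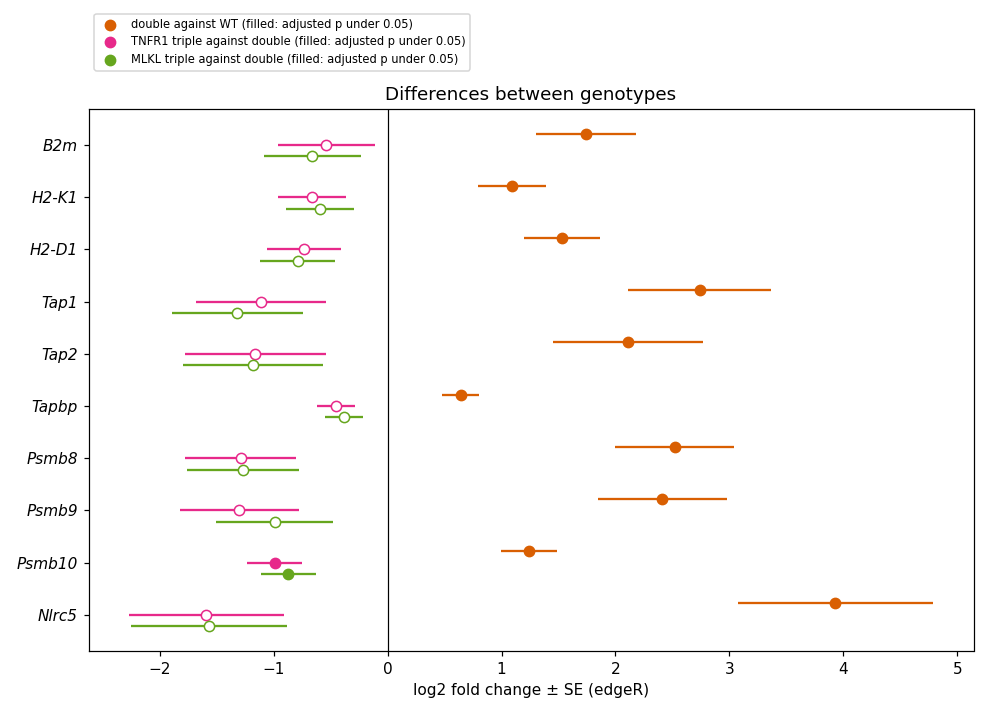
The log2 fold change of the 10 genes, with its SE, for the double knockout against WT and for each triple knockout against the double knockout, from edgeR's fit of all 30 libraries. Filled points passed at an adjusted p under 0.05: all 10 genes against WT, and Psmb10 alone in both triple knockouts.

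Against WT, 0 of the 10 genes passed in either triple knockout, and DESeq2 also gave 0; an unadjusted p under 0.05 was seen for 5 genes with TNFR1 missing and for 6 with MLKL missing. Of all genes, 1.16% and 0.343% were called higher. Median log2 fold changes were 1.03 and 1.0, where the double knockout had 1.92, and the 3 comparisons share the WT libraries. Single libraries weighed on these values. With each library left out in turn, B2m ran from 0.58 to 1.35 with TNFR1 missing and from 0.40 to 1.25 with MLKL missing. Psmb8 ran from 0.60 to 1.41 and from 0.49 to 1.40. B2m was above every WT library in all TNFR1 triple knockout mice (2.34% of all genes), and H2-D1 and Psmb8 in all MLKL triple knockout mice (1.98%). Between the triple knockouts 0 genes passed, 0 had an unadjusted p under 0.05 and DESeq2 called 0, beside 0.259% of all genes in either direction. Their log2 differences, TNFR1 minus MLKL, ran from −0.32 for Psmb9 to 0.21 for Tap1, with SEs of 0.166 to 0.735, which does not show that the genotypes were alike.

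By mean level the double knockout came first for all 10 genes. WT came last for 9 of them, while for H2-K1 the Casp8 knockout (567 ± 120 CPM, SD, n = 5) was below WT (581 ± 26.9). Most neighbours in these orders differed by less than the larger of their SDs. The exceptions were the double knockout above the next group for H2-D1 (519 ± 185 against 314 ± 188 in the TNFR1 triple knockout), Psmb10 (188 ± 67.8 against 103 ± 33.2 in the MLKL triple knockout) and Nlrc5 (15.6 ± 10.1 against 5.29 ± 6.74 in the MLKL triple knockout), and the Casp8 knockout above WT for Tap1 (27.2 ± 11.3 against 15.5 ± 7.18). No neighbouring groups were apart in their ranges.

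Single mice outside the double knockout reached its levels. Xbp1 knockout replicate 5 was within the double knockout range for all 10 genes. The libraries labelled TNFR1 triple knockout replicate 1 and MLKL triple knockout replicate 5 were within it for 9 and above it for B2m, with 2940 and 2835 CPM against a double knockout maximum of 2818. Set against the median of the other 4 mice of its group, each gene of these 3 libraries was higher, by a median of 3.21, 3.63 and 3.10 times. Casp8 knockout replicate 4 was the highest of its group for 7 of the 10 genes, all but Tapbp, Psmb8 and Psmb10, by a median of 1.84 times. The other 4 mice of the Xbp1 knockout were within or below the WT maximum for 4 of the genes, and those of each triple knockout for 3.

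The same 3 libraries had the highest levels of a list of 19 genes of the type I interferon response, such as Ifit1, Mx1 and Oasl2. The summed level of that list was 2821 CPM in Xbp1 knockout replicate 5, 1812 in the library labelled TNFR1 triple knockout replicate 1 and 3591 in that labelled MLKL triple knockout replicate 5. It was 104 to 131 CPM in WT and 146 to 847 in the double knockout, and at most 398 in the other 17 libraries. The 10 genes summed to 5235, 5958 and 5717 CPM in those 3 libraries, beside 6607 and 5922 in double knockout replicates 4 and 5, in which the interferon list stood at 847 and 555 CPM. Those 2 double knockout mice had like sums of the 10 genes with lower interferon list sums, but B2m, H2-K1 and H2-D1 make up most of each sum. Taken singly, all genes but B2m, Tap2 and Psmb9 were higher in both of those mice than in any of the 3 libraries. Psmb8 stood at 259 and 195 CPM against 149, 140 and 154, and Nlrc5 at 26 and 24.6 against 17.1, 14.1 and 17.2. In the double knockout against WT, 3 of the 19 interferon genes passed, Zbp1 (2.70 ± 0.730, adjusted p = 0.00827), Oasl2 (2.87 ± 0.984, adjusted p = 0.0355) and Ifit1 (3.44 ± 1.26, adjusted p = 0.0497), with a list median of 1.92, beside the 11.1% of all genes called higher. Ifng, the gene of interferon gamma, had too few reads to be tested: it was at 0 in all WT and MLKL triple knockout libraries and highest in double knockout replicates 5 (2.05 CPM) and 4 (1.24 CPM). The part of these differences in the class I values was not tested.

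**Figure D3:**
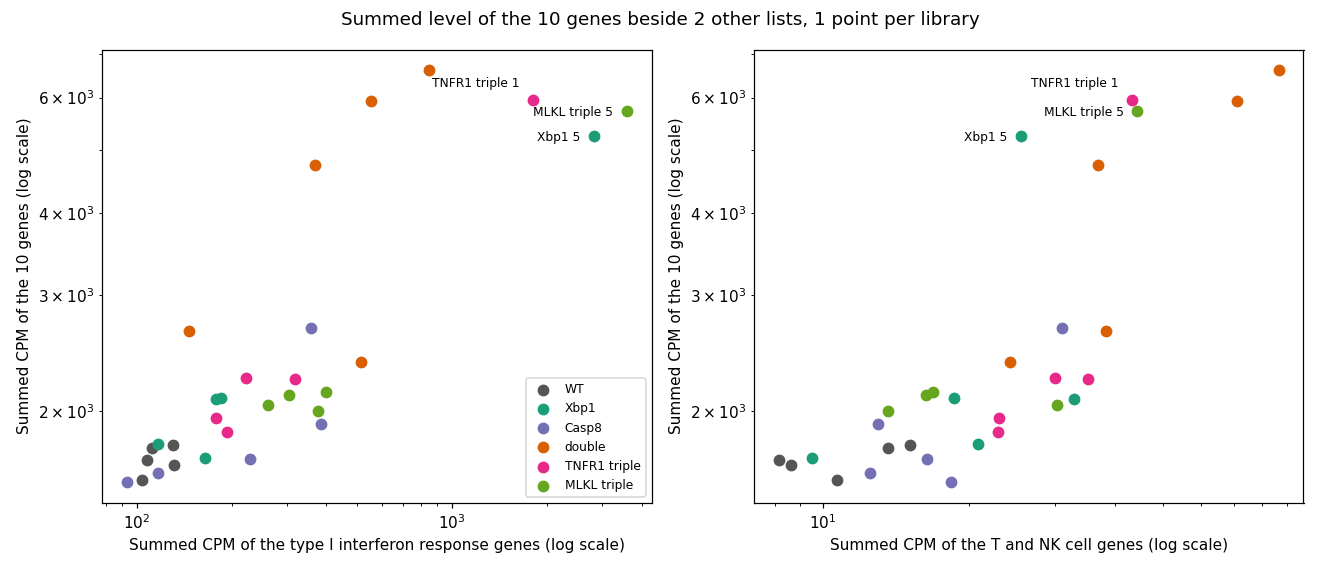
Summed CPM of the 10 genes in each library against the summed CPM of the 19 type I interferon response genes (left) and of 16 T and NK cell genes (right), all on log axes, 1 point per mouse. Xbp1 knockout replicate 5, TNFR1 triple knockout replicate 1 and MLKL triple knockout replicate 5 lie far right of the double knockout on the left and within its range on the right.

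Across the 30 libraries 9 of the 10 genes went up and down together. Over the 36 pairs without Tap2, Pearson's r of log2 CPM was 0.81 to 0.95 with a median of 0.90. After the mean of each genotype was taken off, it was 0.69 to 0.94 with a median of 0.85, so mice of 1 genotype differed in all 9 at once. The 9 pairs with Tap2 had an r of 0.47 to 0.79 (median 0.56). It was 0.18 to 0.70 (median 0.37) after the group means were taken off. Psmb9 gave the highest value with Tap2 both ways. With the mean of the other members Tap2 had an r of 0.62, and the remaining genes 0.89 for Tapbp to 0.97 for Psmb8. These are descriptions over 30 libraries that share genotypes and scaling, and carry no test.

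**Figure D4:**
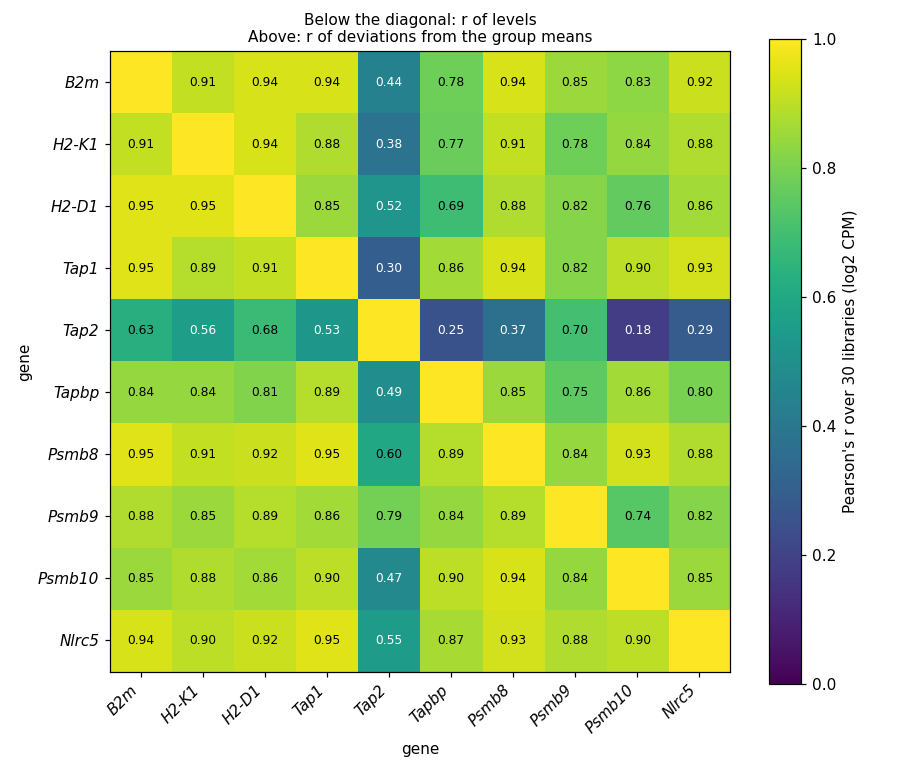
Pearson's r between the 10 genes over 30 libraries on the log2 CPM scale, below the diagonal for levels and above it for deviations from the group means. The row and column of Tap2 hold the lowest values, 0.47 to 0.79 for levels, while the pairs without it lie at 0.81 to 0.95.

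The genes whose levels were most like the mean of the 10, among all other genes tested, were Ifi47 (r = 0.98), Igtp, Ly6a and Upp1 (down to 0.95), Gm4951, AW112010, Nampt and Iigp1 (down to 0.94), and Psme1 and Cxcl10 (0.93). Ifi47, Igtp and Iigp1 encode interferon-inducible GTPases, Cxcl10 a chemokine for T cells, and Psme1 a subunit of the proteasome activator. Ifi47 stood at 3.03 to 6.5 CPM in WT and at 60.5, 23.5, 30.3, 191 and 127 CPM in the double knockout, with no overlap. It stood at 59.0, 98.5 and 82.0 CPM in the 3 single high libraries (Xbp1 knockout 5, TNFR1 triple 1 and MLKL triple 5), which is within the double knockout range for Ifi47.

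Tap2 varied more like genes outside the class I pathway. The 10 genes closest to it, looked up after its values were seen, were Net1 (r = 0.90), Sptlc2, Fam131a, Calm2, Psmc3ip, Apba3, Tdrd7, Ncstn, Mrps28 and Sppl2a (0.85), none of them a class I gene. These had an r of 0.24 to 0.70 with the mean of the other 9 members and of 0.47 to 0.78 with Psmb9. The 10 genes most like the whole set had an r of 0.56 to 0.69 with Tap2. Net1, which encodes an exchange factor for the GTPase RhoA, varied within WT from 36.9 to 113 CPM. WT replicates 1 and 2 were high for both Net1 (113 and 111 CPM) and Tap2 (13.6 and 7.35 CPM), and WT replicate 5 was lowest for both. Tap2 rested on 5 to 218 reads a library (median 36.5) and overlaps 2 genes on the opposite strand.

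**Figure D5:**
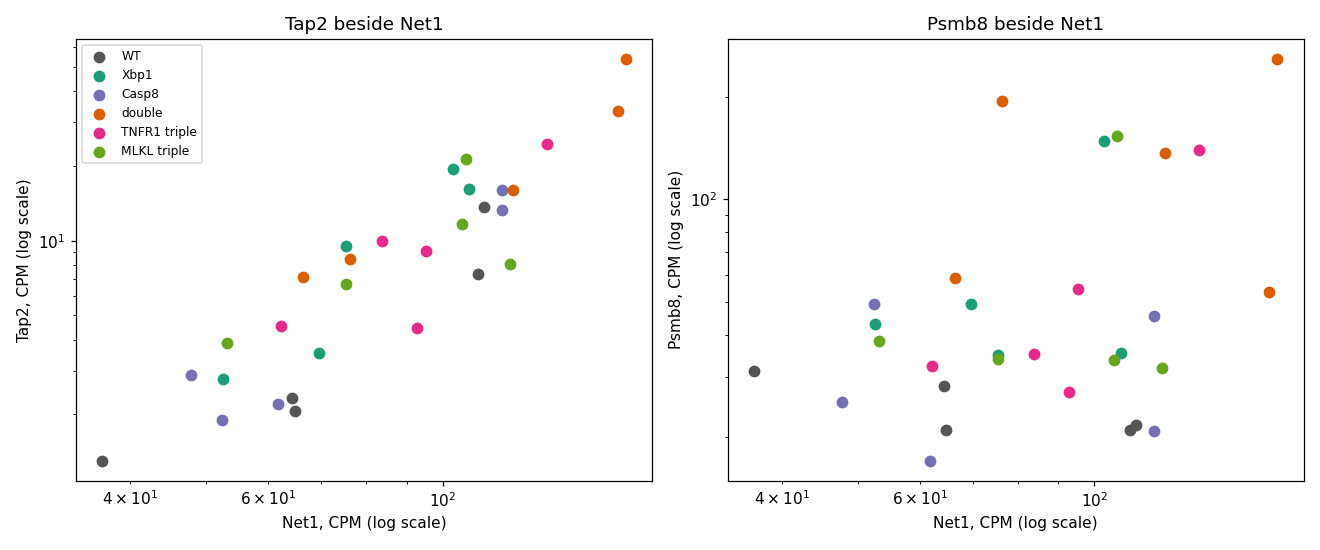
Tap2 (left) and Psmb8 (right) against Net1 in the 30 libraries, in CPM on log axes, 1 point per mouse. Tap2 rises with Net1 (r = 0.90 with 1 CPM added), from WT replicate 5 at the lower left to double knockout replicate 4 at the upper right, while Psmb8 differs widely between libraries of like Net1 at the upper end of its range.

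Each immunoproteasome subunit was also set, within each library, against the standard subunit it replaces. In the double knockout against WT the log2 ratio, with 0.5 CPM added, was higher by 1.67 for Psmb8 to Psmb5, by 1.88 for Psmb9 to Psmb6 and by 1.0 for Psmb10 to Psmb7. Psmb9 to Psmb6 ran from −4.52 to −3.07 in the 5 WT libraries and from −3.02 to −0.29 in the double knockout, with no overlap (2-sided exact permutation test, p = 0.00794, the smallest that 5 against 5 can give, and 0.0714 adjusted over 9 tests). The other ratios had exact p of 0.0317 and 0.0556 (adjusted 0.0952 each). None of the 9 passed after adjustment, including those of the triple knockouts against the double knockout, where differences were −1.27, −1.24 and −0.97 with TNFR1 missing and −1.15, −0.72 and −0.88 with MLKL missing (adjusted p = 0.0952 to 0.278). Without double knockout replicate 2, 6 of the 9 passed (exact permutation, adjusted p = 0.0476), and 3 of these, against WT, also passed without WT replicate 5. Replicate 2 had the lowest Psmb10 to Psmb7 ratio of its group (2.36). WT replicate 5 had the highest WT ratio of Psmb8 to Psmb5 (4.96) and of Psmb10 to Psmb7 (3.23). With other libraries left out the largest adjusted p of each test was 0.143 to 0.556, so these counts are no separate support. In edgeR's test the standard subunits themselves had small differences in the double knockout: Psmb6 rose by 0.25 ± 0.0802 (log2, adjusted p = 0.0227), while Psmb7 (0.16 ± 0.136, adjusted p = 0.438) and Psmb5 (0.58 ± 0.421, adjusted p = 0.349) did not pass. Psmb5 was near the limit of detection, at 1.36 ± 0.938 CPM in WT (SD, n = 5).

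Other genes of the pathway were listed by role and read in the same fit, with the 11.1% of all genes called higher in the double knockout as background. Of the standard proteasome core 6 of 14 rose and 0 fell (median log2 fold change 0.31), led by Psmb2 (1.08 ± 0.152, adjusted p = 1.58e-05), a core subunit with no immunoproteasome counterpart, then Psmb4 (0.46 ± 0.0954) and Psma6 (0.51 ± 0.113). Psmb2 was also lower in both triple knockouts than in the double knockout (−0.54 ± 0.148, adjusted p = 0.0455, and −0.51 ± 0.148, adjusted p = 0.0302). Of the activator and assembly genes 2 of the 8 tested rose (median 0.12), Psme1 (1.02 ± 0.210, adjusted p = 8.18e-04) and the assembly chaperone Psmg4 (0.65 ± 0.173, adjusted p = 0.00716). Of the peptide loading and trimming genes 4 of 9 rose (median 0.29), among them the trimming enzymes Erap1 (0.61 ± 0.143) and Lap3 (0.69 ± 0.182) and the chaperone Calr (0.52 ± 0.154).

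Of the nonclassical and class I-like chains 7 of the 13 tested, out of 16 listed, rose and 0 fell (median 0.78). The largest was H2-Q7 (3.66 ± 0.786, adjusted p = 0.00120), a Qa-2 gene, followed in p by H2-M2 (2.07 ± 0.578, adjusted p = 0.0102) and H2-Q4 (1.91 ± 0.536, adjusted p = 0.0107). The H2-Q genes are closely related in sequence, and how reads were divided between them is not stated. Of the class I transcription and interferon signalling genes 6 of the 19 tested rose (median 0.31), led by Irf8 (0.71 ± 0.151), Irf1 (0.99 ± 0.223, adjusted p = 0.00195), a transcription factor of interferon targets, and Ciita (1.86 ± 0.505), the class II counterpart of Nlrc5. Irf1 stood at 100 to 177 CPM in WT and at 210, 169, 141, 368 and 365 CPM in the double knockout, where replicates 2 and 3 were within the WT range. In the MLKL triple knockout Irf1 was lower than in the double knockout (−0.73 ± 0.221, adjusted p = 0.0392), as was Psme1 (−0.75 ± 0.208, adjusted p = 0.0243).

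Most lists of immune cell markers were also higher in the double knockout than in WT. Of 16 T and NK cell genes 6 could be tested, and 5 rose in the double knockout, led by Trac (3.62 ± 0.662), Cd2 (2.48 ± 0.485) and Trbc2 (2.70 ± 0.560). The 16 genes summed to 8.14 to 15.1 CPM (WT), 9.50 to 32.9 (Xbp1 knockout), 12.5 to 31.0 (Casp8 knockout), 24.3 to 86.6 (double knockout), 22.9 to 43.3 (TNFR1 triple) and 13.6 to 44.4 (MLKL triple). Ncr1 was at 0 in all WT and Xbp1 knockout libraries and Prf1 in all MLKL triple knockout libraries. The sum was highest in double knockout replicates 4 and 5 (86.6 and 71.3 CPM), the mice with the highest sums of the 10 genes in that group. Plasma cell genes rose for 7 of 8 (Mzb1 3.35 ± 0.399), with sums of 450 to 1589 CPM in WT and 2743 to 15302 in the double knockout. Monocyte and macrophage genes rose for 8 of 12 (Ly6c2 4.08 ± 0.704), with sums of 287 to 447 and 408 to 861 CPM. Dendritic cell genes rose for 2 of the 5 tested of 8 (Itgax 1.76 ± 0.394), with sums of 16.3 to 22.4 and 18.3 to 33.9 CPM. The rest did not pass: Clec9a (−1.09 ± 0.539) and Zbtb46 (−0.11 ± 0.206) were lower and Batf3 (0.87 ± 0.428) higher. Neutrophil genes rose for all 3 tested of 8 (S100a8 7.21 ± 1.17), with sums of 137 to 268 and 240 to 789 CPM and with Cxcr2, Mpo and Elane at 0 in WT. B cell genes changed for 0 of 8 tested of 9 in edgeR's test, with sums of 2.13 to 57.9 CPM in WT and 10.8 to 48.3 in the double knockout. Smooth muscle genes fell for 8 of 8 (Mylk −1.41 ± 0.174), beside 10.2% of all genes called lower. In Xbp1 knockout replicate 5, where the 10 genes summed to 5235 CPM against 1696 to 2090 in the other 4, the T and NK cell sum (25.6 CPM), the plasma cell sum (1032) and the monocyte and macrophage sum (473) were each below the highest of the other 4 (32.9, 2441 and 498). TNFR1 triple knockout replicate 1 had the highest T and NK cell sum (43.3 CPM) and plasma cell sum (9649) of its group. The next highest there were 35.2 and 4215, and its monocyte and macrophage sum (506) was below that of replicate 3 (550). MLKL triple knockout replicate 5 was the highest of its group for all 3 sums (44.4, 5170 and 633 CPM). The next highest there were 30.3, 2958 and 408. The part of these cells in the class I values was not tested.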

How the data were processed

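The authors deposited 1 table of estimated counts, genes by libraries, from 3′ tag libraries (Lexogen QuantSeq forward, per the labels' protocols), which need not be whole: 11.22% of non-zero values were not. The submitters' processing notes list R 4.0.0, featureCounts 2.01, Subread and cutadapt 3.2, and the build GRCm38 (mm10), without roles. No source used here gives the strand setting, the annotation release, how shared reads were divided, or molecular identifiers, so reads can hold PCR copies. Library totals of 3516792.6 to 5823059.7 reads limit genes of a few CPM to a few reads.

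The 92 spike-in rows (0 reads) were left out, and 55141 of 55487 gene identifiers had a symbol. Counts were rounded, filtered with filterByExpr and fitted with all 30 libraries in 1 model (R 4.3.3, edgeR 4.0.16, TMM, quasi-likelihood F test). The code was tried on simulated counts with 1 spread for all genes and no outlying library. That trial does not bear on genes that vary together or on the single high libraries. P was adjusted by Benjamini-Hochberg over 15458 genes within each of 11 comparisons (threshold 0.05). The SE is the log2 fold change divided by the square root of F. Ratios used 2-sided exact permutation tests over libraries. Correlations used log2 of CPM with 1 CPM added. All 10 genes are named in every comparison; from every other list up to 3 genes of smallest p that passed in the double knockout against WT, and the 10 genes most like the set; other names were chosen after their values were seen. The members, lists, tests and alternatives were chosen with earlier results of these data known. Alternatives were DESeq2 1.42.0 and its size factors, other filters, a fit of the compared groups only, the replicate number as a block, sex as a term, libraries left out (the set of 4 was added after seeing the data), and 2 CPM added to ratios. Per the labels' protocols each library is RNA of its own mouse.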

Additional observations from a re-analysis of the deposited data

Results flagged for a closer look

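In each group of 5 mice the highest and lowest value of each of the 10 genes was compared with its neighbour by Dixon's test on the log2 scale at 95%. Of 60 sets of 5 libraries, 15 held a library that stood apart, always the highest one, where chance gives about 1 set in 20 and where the 10 genes are not independent. Xbp1 knockout replicate 5 stood apart for B2m (2560 CPM), H2-K1 (1330), H2-D1 (543) and Psmb8 (149). The library labelled TNFR1 triple knockout replicate 1 stood apart for B2m (2940 CPM), H2-K1 (1450), H2-D1 (647) and Tap1 (135). Its Tnfrsf1a tags do not settle its label, since groups with no TNFR1 deletion in their labels ranged as widely (56.3 to 76.6 CPM in the Casp8 knockout). The library labelled MLKL triple knockout replicate 5 stood apart for B2m (2835 CPM), H2-K1 (1426), H2-D1 (545), Tap1 (119), Psmb8 (154) and Psmb10 (161). Its Mlkl tags put its label in doubt but do not settle it. Casp8 knockout replicate 4 stood apart for H2-D1 (372 CPM). No WT or double knockout library stood apart by this test.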

How the results depend on the processing

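No called result changed direction. Of 2185 refits of single genes 2104 stayed on the same side of the threshold, 52 passed newly and 29 no longer passed; 53 changed sign, none of them called, 44 between the triple knockouts, 8 in the Casp8 knockout and 1 in the Xbp1 knockout against WT. Numbers of genes differing that moved by over 1.5 times were as follows. For the double knockout against the Xbp1 knockout, 1 became 5 without the low-count filter, 2 with the replicate block, 2 with sex as a term, and 1 to 8 with each library left out in turn. For the TNFR1 triple knockout against the double knockout, 1 became 0 without the 3 libraries in doubt, 7 without TNFR1 triple knockout replicate 1 too (chosen after seeing the data), 0 in a fit of the compared groups only, and 0 to 7 with each library left out. For the MLKL triple knockout, 1 became 2 without the filter, 4 without the 3 libraries in doubt, 7 without those 4, 0 in the fit of the compared groups, and 0 to 6 with each library left out. The other counts ran from 9 to 10 (double knockout against WT) and 6 to 10 (against the Casp8 knockout) with libraries left out, and stayed at 0 elsewhere. Nlrc5 was filtered out of some fits of the compared groups only and has no value there. With 2 CPM added, the log2 ratio differences of the double knockout against WT were 1.88 (Psmb8 to Psmb5) and 1.71 (Psmb9 to Psmb6), and both passed (adjusted exact permutation p = 0.0357). With libraries left out, these ran from 1.34 to 1.97 and from 1.50 to 2.19, Psmb10 to Psmb7 from 0.86 to 1.25, and, against the double knockout, Psmb8 to Psmb5 from −1.56 to −0.93 (TNFR1) and −1.59 to −0.77 (MLKL), Psmb9 to Psmb6 from −1.72 to −0.86 and −1.09 to −0.34, and Psmb10 to Psmb7 from −1.19 to −0.83 and −1.09 to −0.74. The cause was not tested.

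Replicate numbers did not pair the mice: of 5 same-numbered pairs a comparison, 0 to 3 had a correlation over 0.1. The replicate block changed 1 call among the 110 of single genes, Nlrc5 in the double knockout against the Xbp1 knockout (1.93, adjusted p = 0.0496). Depth limits Nlrc5, Tap2 and Psmb5 most.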
